A study of Mus musculus with 5 samples.

Results

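The 10 genes followed here are widely used as markers of injury to the kidney tubule, and were measured in kidneys of lupus-prone mice given diosmetin or vehicle: Havcr1, Lcn2, Krt8, Krt18, Krt19, Krt20, Spp1, Clu, Sox9 and Timp1. They were chosen by name, and all 10 had a row among the 21878 genes of the deposited expression table. NZB/NZW F1 mice are the offspring of NZB/BINJ females and NZW/LacJ males, and they spontaneously develop lupus-like autoimmunity with nephritis. Diosmetin, a flavone found in citrus and herbs, was injected intraperitoneally at 50 mg/kg on alternate days over 6 weeks (3 libraries), and control mice were injected with vehicle (2 libraries). The sources used here do not give the age or sex of the mice or what the vehicle was. Each library was made from total RNA of kidney. Since the labels name no animal, each p-value reflects only how far these samples scatter, and part of that scatter may be technical.

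Tubule cells respond to damage by losing their transport machinery and raising a set of genes, some of which healthy tubules barely use and others of which some segments make all the time. Some of these encode proteins of the cell surface or secreted proteins that appear in urine (Havcr1, Lcn2, Spp1, Clu, Timp1), some are keratins that stiffen the cytoskeleton of simple epithelia (Krt8, Krt18, Krt19, Krt20), and Sox9 is a transcription factor of regenerating tubule cells. Lupus nephritis damages the glomerulus first, and tubular injury markers are measured in it as a sign of how far the damage has spread.

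Expression was given as FPKM, the number of sequenced fragments scaled to transcript length and library total. The depth worked out from the smallest steps between low values lay between 38.4 and 48.6 M fragments per library. The lowest correlation of log2(FPKM + 1) across genes between any libraries was 0.992 (genes are not independent replicates). It covered all 21878 genes, of which 3733 were at 0 in every library. Kidney identity was clear from the markers of its segments: Slc34a1, the phosphate transporter of the proximal tubule, lay between 856 and 1432 FPKM, and Slc12a1, the salt transporter of the thick ascending limb, between 272 and 397. Vehicle replicate 1 stood apart, with the lowest value of all libraries for 38.7% of the 13290 genes tested, and diosmetin replicate 2 had the highest value for 37.5%. In bulk tissue, fewer cells of a type and less RNA per cell cannot be told apart.

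None of the injury markers was clearly lower in the diosmetin kidneys, and 4 of the 10 lay above vehicle in every library: Lcn2, Krt8, Krt18 and Krt19. The remaining members overlapped between the groups. Of the 10, 8 had a higher mean log2 level under diosmetin and 2 (Spp1 and Timp1) a lower one, beside 63.9% and 36.1% of all tested genes. Groups that did not overlap, with diosmetin higher, made up 18.3% of tested genes, and those with diosmetin lower 6.17%, a pattern no member had. The median log2 difference (diosmetin minus vehicle) was 0.11 over the 10 members and 0.04 over all tested genes.

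The test was limma on log2(FPKM + 1), on which changes of weakly expressed genes come out too small, with Benjamini-Hochberg adjustment over all 13290 genes that had a mean FPKM of at least 0.5. Of the members 9 met that minimum, and Timp1, with a mean of 0.324 FPKM, did not. By limma 0 genes passed an adjusted p of 0.05 (0% of those tested), no member among them, and the smallest adjusted p of any gene was 0.738. At an unadjusted p under 0.05 stood 2 members, Krt18 and Krt19, both higher, beside 4.68% of all tested genes in that direction and 1.69% in the other. With 3 libraries against 2, an exact permutation test over the 10 splits cannot go below p = 0.1.

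**Figure D1:**
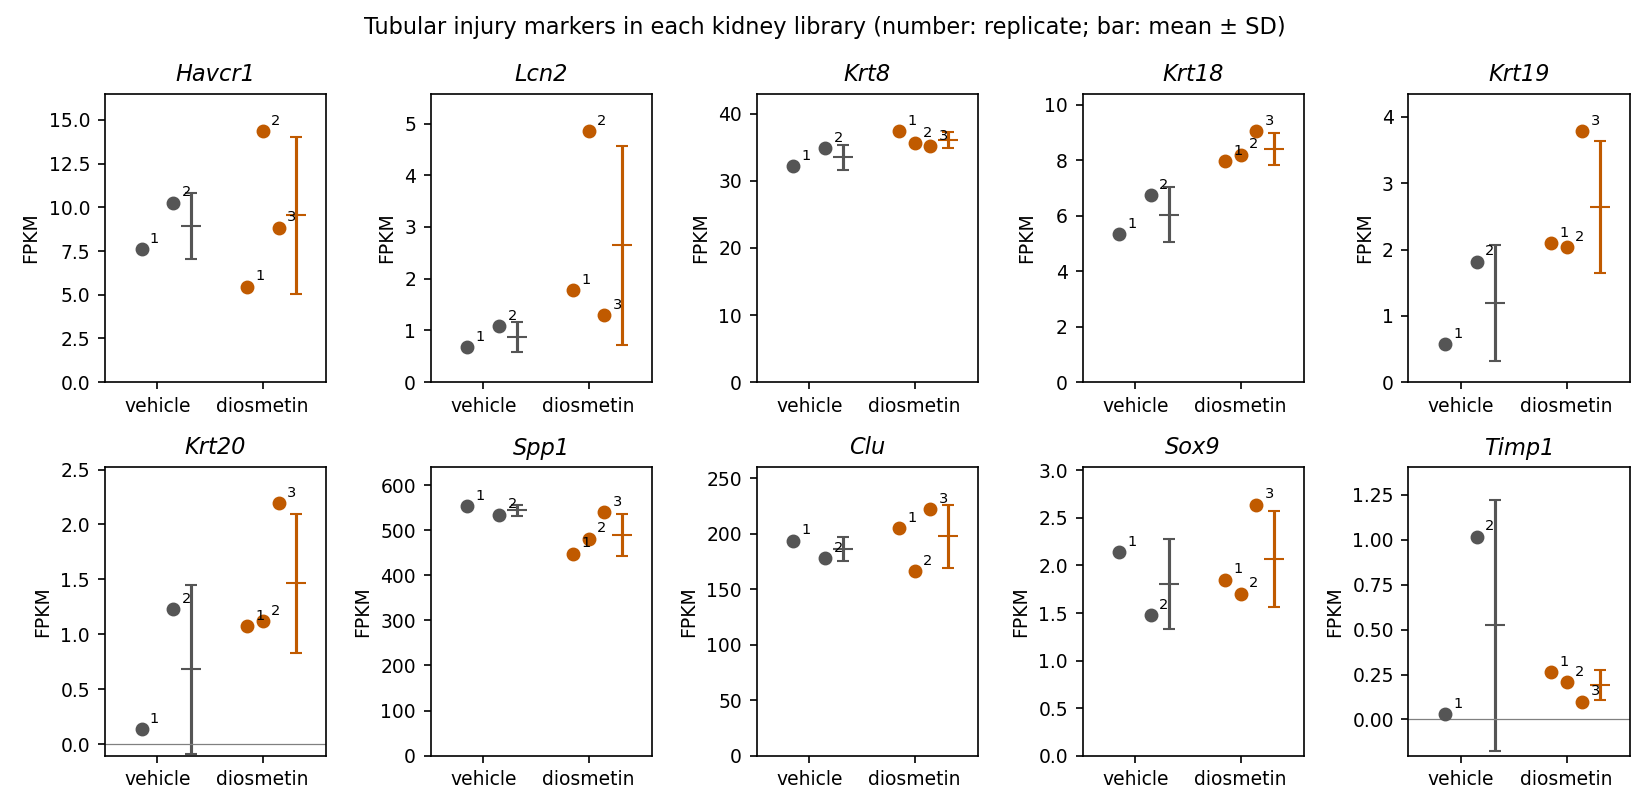
FPKM of each injury marker (vertical axes, each from its own scale) in the 2 vehicle and 3 diosmetin libraries, with the replicate number beside each point and the group mean ± SD as a bar. Lcn2, Krt8, Krt18 and Krt19 do not overlap between the groups, and Timp1 has a single high library, vehicle replicate 2 at 1.02 FPKM.

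**Figure D2:**
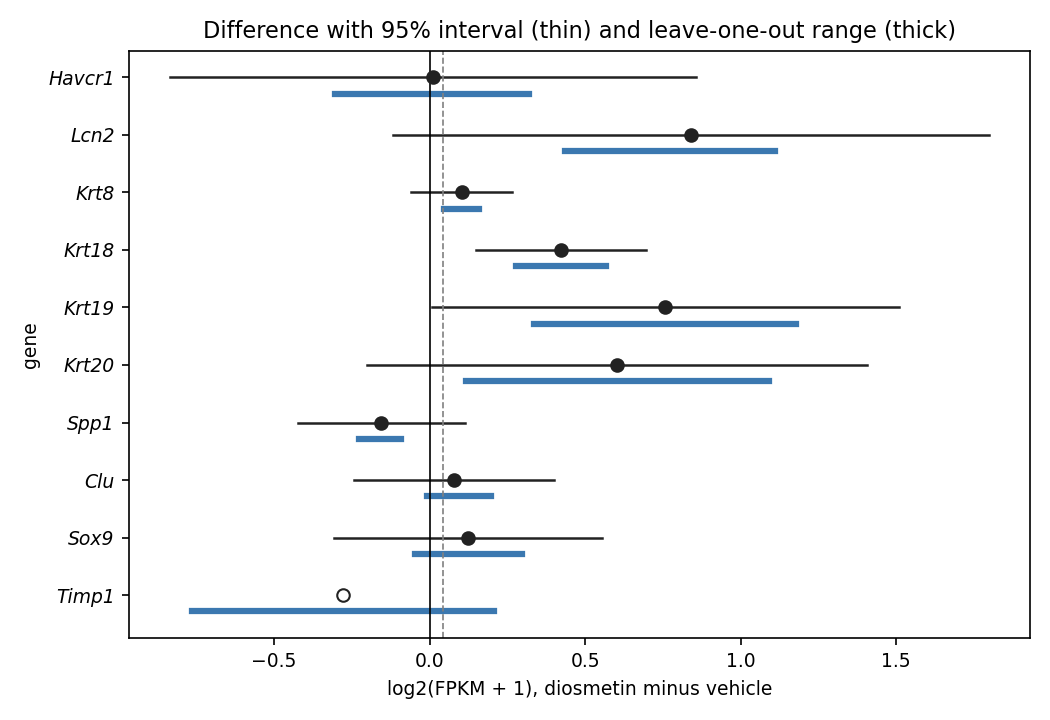
Difference of log2(FPKM + 1), diosmetin minus vehicle, for each marker (filled point) with its 95% interval from limma (thin line) and the range when each library is left out in turn (thick line); the open point, Timp1, was below the expression minimum and has no interval, and the dashed line is the median of all tested genes at 0.04. The interval lies wholly above 0 for Krt18 (0.15 to 0.70) and Krt19 (0.01 to 1.51), before any adjustment for the number of genes.

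Havcr1 encodes kidney injury molecule 1, a phosphatidylserine receptor that injured proximal tubule cells display to engulf dying neighbours, and it is the most proximal-specific of the markers. It was measured at 7.59 and 10.3 FPKM in vehicle replicates 1 and 2, and at 5.47, 14.4 and 8.84 FPKM in diosmetin replicates 1, 2 and 3. The lowest and the highest of the 5 values were thus both diosmetin libraries, and the vehicle values lay between them. The log2 difference was 0.01 ± 0.35 (SE; limma adjusted p = 0.996), with a 95% interval from -0.83 to 0.86. Its sign depended on single libraries: the difference was -0.30 without diosmetin replicate 2 and 0.32 without diosmetin replicate 1. The gene (GeneID 171283) lies on chromosome 11 from 46739822 to 46779578 in GRCm38.p6. Markers of the proximal tubule, the segment that makes Havcr1, had a lower mean under diosmetin for 16 of 18 genes, beside 36.1% of all tested genes. The summed level of these markers was 14191 to 14515 FPKM in vehicle and 8620 to 11783 in diosmetin libraries. The separation of these sums rested on 1 gene, Kap, the kidney androgen-regulated protein: without it, a choice made after the values were seen, the sums were 9806 and 8038 FPKM with vehicle and 9232, 5812 and 6597 FPKM with diosmetin, which overlapped. Of the 18 markers 1, Cubn, the endocytic receptor cubilin, was lower without overlap, beside 6.17% of all tested genes. Either sum was lowest in diosmetin replicate 2, where Havcr1 was highest, and the part of these cells in the Havcr1 values was not tested.

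Lcn2 encodes lipocalin 2, known as NGAL, which binds the iron-carrying siderophores of bacteria and is secreted by stressed cells of the thick ascending limb and collecting duct. It stood at 0.672 and 1.09 FPKM with vehicle, compared with 1.78, 4.85 and 1.298 FPKM with diosmetin. Every diosmetin value lay above both vehicle values, and diosmetin replicate 2 was well above the other diosmetin libraries. The group means were 0.879 ± 0.293 FPKM (SD, n = 2) and 2.64 ± 1.93 (SD, n = 3). The log2 difference was 0.84 ± 0.39 (SE; limma adjusted p = 0.738), and the exact permutation test gave p = 0.2, two-sided. Without diosmetin replicate 2 the difference was 0.44. Markers of the thick ascending limb and distal tubule, a source of Lcn2, had a higher mean for 7 of 8 genes, beside 63.9% of all tested genes. These markers summed to 2502 and 2685 FPKM with vehicle and to 2565, 3605 and 3410 FPKM with diosmetin. These sums overlapped and were highest in the library highest for Lcn2, which was the highest for 37.5% of all tested genes. Principal cell markers of the collecting duct summed to 298.7 and 369 FPKM with vehicle and to 405, 390 and 397 FPKM with diosmetin. Intercalated cell markers summed to 135 and 146 against 200, 208 and 195 FPKM. The sums of both collecting duct lists did not overlap. The part of these segments in the Lcn2 values was not tested. The gene (GeneID 16819) lies on chromosome 2 from 32384637 to 32387739. These values rest on about 24 and 48 fragments under vehicle and about 76, 191 and 54 under diosmetin, by the depth estimate and the transcript length of 915 bases.

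Neutrophils also make lipocalin 2, and markers of those cells were followed beside it. S100a9, a calcium-binding protein abundant in neutrophils and monocytes, was at 0.050 and 0.589 FPKM with vehicle, compared with 2.69, 1.11 and 2.49 FPKM with diosmetin. Its partner S100a8 was at 0.199 and 0.735 against 1.03, 1.305 and 1.98 FPKM. Both thus shared the direction of Lcn2, but their lowest diosmetin values were in replicates 2 and 1 respectively, whereas Lcn2 was highest in replicate 2. Of the 10 neutrophil markers 6 had a higher and 2 a lower mean, and Mpo and Elane, enzymes of neutrophil granules, were listed at 0 in every library. Ly6g, a surface antigen of mouse neutrophils, went the other way without overlap, at 0.723 and 0.594 FPKM against 0.456, 0.0745 and 0.308, and Ltf, which encodes lactoferrin, had a lower mean. The summed level of the list was 1.27 to 3.51 FPKM in vehicle and 3.54 to 5.77 in diosmetin libraries. Without S100a8 and S100a9, a choice made after the values were seen, the sums overlapped, at 1.025 and 2.18 FPKM against 1.83, 1.125 and 1.303. The part of these cells in the Lcn2 values was not tested.

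A ratio within a library does not depend on library scaling, and FPKM, being per length, lets the levels of Lcn2 and Havcr1 be set against each other. The ratio of the Lcn2 level to the Havcr1 level was 0.0885 and 0.106 under vehicle and 0.325, 0.338 and 0.147 under diosmetin. All 3 diosmetin ratios lay above both vehicle ratios (log2 difference 1.39, exact permutation p = 0.2, two-sided). The libraries with the most and the least Havcr1, diosmetin replicates 2 and 1, had nearly equal ratios.

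All 4 keratins among the markers, which form the intermediate filaments of simple epithelia, had a higher mean with diosmetin, and for 3 of them the groups did not overlap. Krt8 and Krt18 encode the obligate partners keratin 8 (type II) and keratin 18 (type I), and Krt19 and Krt20 encode further type I keratins, of duct cells and of urothelium and gut respectively, that appear in damaged tubules. Krt18 was at 5.34 and 6.75 FPKM with vehicle, compared with 7.97, 8.205 and 9.05 FPKM with diosmetin. The lowest diosmetin value lay above the highest vehicle value, and the spread within each group was smaller than the gap between the means of 6.04 ± 0.996 (SD, n = 2) and 8.41 ± 0.569 (SD, n = 3). The log2 difference of 0.42 ± 0.11 (SE) had the smallest unadjusted p of the members by limma (0.00903; adjusted p = 0.738), and p = 0.1 by the exact permutation test, two-sided. Over the fits that leave out a library the difference stayed between 0.28 and 0.57; the unadjusted limma p missed 0.05 without vehicle replicate 1 (0.0535).

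Krt8 was the more abundant partner and differed little between the groups. It stood at 32.2 and 34.9 FPKM with vehicle, compared with 37.4, 35.7 and 35.2 FPKM with diosmetin. The groups did not overlap, but by a margin that depended on scaling, since they did overlap with median-of-ratios scaling and with quantile normalization. The log2 difference was 0.10 ± 0.07 (SE; limma adjusted p = 0.757), 0.05 with median-of-ratios scaling. The level of Krt8 per level of Krt18 was 6.03 and 5.17 under vehicle and 4.70, 4.35 and 3.88 under diosmetin, with no overlap between the groups. That difference was -0.38 on the log2 scale (exact permutation p = 0.1, two-sided), and -0.27 to -0.49 when each library was left out.

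Krt19 stood at 0.570 and 1.82 FPKM with vehicle, compared with 2.09, 2.04 and 3.79 FPKM with diosmetin. Vehicle replicate 1 was far below the rest and diosmetin replicate 3 well above, while vehicle replicate 2 came close to the lower diosmetin libraries. The log2 difference was 0.76 ± 0.31 (SE; limma adjusted p = 0.738), and 0.34 without vehicle replicate 1. The unadjusted limma p of Krt19, 0.0485, ranged from 0.00613 without vehicle replicate 2 to 0.278 without vehicle replicate 1, missing 0.05 also when any diosmetin library was left out, and it also missed 0.05 with median-of-ratios scaling (0.0551), with no expression minimum (0.0710), with a minimum of 1 FPKM (0.0505) and without the variance trend (0.0537). Krt20 was at 0.134 and 1.23 FPKM with vehicle, compared with 1.07, 1.12 and 2.19 FPKM with diosmetin. Here the groups overlapped, and the values of the vehicle pair differed 9.17-fold, more than the means of the groups did (2.15-fold). The log2 difference of Krt20 was 0.60 ± 0.33 (SE; limma adjusted p = 0.744), and 0.12 without vehicle replicate 1. In vehicle replicate 1 the Krt20 level rested on about 10 fragments, and in the other libraries on about 93 to 191. The ratio of Krt19 to Krt18 was 0.107 and 0.269 in the vehicle libraries, against 0.263, 0.248 and 0.418 under diosmetin, so that these groups overlapped (exact permutation p = 0.3, two-sided).

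Krt8 and Krt18 are neighbours on chromosome 15, pointing away from each other with 23.9 kb between them. Krt8 (GeneID 16691) runs from 101996711 to 102004342 on the minus strand, and Krt18 (GeneID 16668) from 102028216 to 102032026 on the plus strand, in GRCm38.p6. Krt8 shares 101 exon bases with the antisense transcript Gm36026 and has a processed pseudogene, Krt8-ps, so some of its fragments could have been assigned elsewhere. Krt19 (GeneID 16669) and Krt20 (GeneID 66809) lie on chromosome 11, from 100140810 to 100145926 and from 99428385 to 99438153. Their promoter windows are shown because the ratio of the partners separated the groups, with those of Krt20 and Lcn2, members with wide spreads between libraries, for comparison. Each window holds 250 bases before and 50 after the start annotated by RefSeq (GRCm38.p6), 5′ to 3′ on the strand of the gene. Capitals mark TATAAA, the core TATA box, and GGGCGG, a GC box, on either strand.
Krt8, chr15:102004293-102004592, minus strand: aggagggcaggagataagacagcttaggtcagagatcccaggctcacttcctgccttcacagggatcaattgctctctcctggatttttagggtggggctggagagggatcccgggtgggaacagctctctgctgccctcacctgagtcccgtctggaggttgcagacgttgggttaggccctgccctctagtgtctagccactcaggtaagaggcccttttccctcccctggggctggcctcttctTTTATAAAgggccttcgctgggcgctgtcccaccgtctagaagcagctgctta
Krt18, chr15:102027966-102028265, plus strand: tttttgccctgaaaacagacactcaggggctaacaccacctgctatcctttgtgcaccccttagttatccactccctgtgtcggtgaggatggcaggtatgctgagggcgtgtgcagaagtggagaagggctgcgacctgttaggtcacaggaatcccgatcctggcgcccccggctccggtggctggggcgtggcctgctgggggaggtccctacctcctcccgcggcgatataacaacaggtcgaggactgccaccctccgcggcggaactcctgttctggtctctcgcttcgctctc
Krt20, chr11:99438104-99438403, minus strand: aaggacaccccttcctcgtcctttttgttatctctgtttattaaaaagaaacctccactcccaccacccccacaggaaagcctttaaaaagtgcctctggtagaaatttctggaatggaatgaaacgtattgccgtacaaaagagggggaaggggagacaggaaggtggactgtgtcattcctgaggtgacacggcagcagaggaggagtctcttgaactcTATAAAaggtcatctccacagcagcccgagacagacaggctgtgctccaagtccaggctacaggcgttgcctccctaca
Lcn2, chr2:32387690-32387989, minus strand: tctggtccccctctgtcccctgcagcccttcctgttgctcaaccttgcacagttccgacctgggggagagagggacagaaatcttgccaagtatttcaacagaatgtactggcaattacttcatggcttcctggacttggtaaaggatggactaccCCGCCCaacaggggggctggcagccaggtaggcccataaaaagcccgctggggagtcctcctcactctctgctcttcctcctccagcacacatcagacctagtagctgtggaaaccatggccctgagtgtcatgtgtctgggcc

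Krt8 held TATAAA, overlapping its own reverse complement, at bases 248 to 255 of the window, directly at the annotated start. Krt20 held it at bases 222 to 227. The window of Krt18 held none of the motifs searched on both strands, which were the TATA box TATAAA, the CCAAT box, the GC box GGGCGG, the AP-1 site TGANTCA and the STAT site TTCNNNGAA. Lcn2 held GGGCGG as its reverse complement, at bases 157 to 162. Of 32851 promoter windows of the same length 13.6% held TATAAA, 37.4% CCAAT, 35.7% GGGCGG, 7.81% TGANTCA and 8.30% TTCNNNGAA. Windows were matched for 7 of the 10 members, 10 windows in all. TATAAA and CCAAT were found in Spp1, CCAAT and GGGCGG in Timp1, TGANTCA in 1 of the 3 windows of Havcr1, and TTCNNNGAA in no member.

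Keratins 8, 18 and 19 are also made in quantity by the collecting duct, and keratin 20 by the urothelium that lines the renal pelvis. All 9 markers of principal cells had a higher mean under diosmetin, beside 63.9% of all tested genes. The summed level of these markers was 298.7 and 369 FPKM in vehicle replicates 1 and 2 and 390 to 405 in diosmetin libraries. All 8 intercalated cell markers had a higher mean too, with sums of 135 and 146 FPKM against 195 to 208. Both sums were lowest in vehicle replicate 1, as were all 4 keratins, beside 38.7% of all tested genes. The sum of the thick ascending limb and distal tubule markers was lowest there too, and that of the proximal tubule markers was highest there. The library highest for Krt18, Krt19 and Krt20 was diosmetin replicate 3, and the principal and intercalated cell sums were highest in other libraries. The part of these cells in the keratin values was not tested. Urothelial markers were low: the uroplakins Upk1b and Upk2 were at most 0.0657 and 0.0253 FPKM in any library, and Krt5 was listed at 0 throughout. The 9 markers summed to 0.679 and 0.443 FPKM with vehicle and to 0.944, 1.08 and 0.970 FPKM with diosmetin, without overlap and in the direction of Krt20. Upk1a, a further uroplakin, at 0.358 and 0.142 against 0.440, 0.533 and 0.525 FPKM, and Psca, a surface antigen of urothelium, at 0.0304 and 0.0721 against 0.224, 0.244 and 0.155, carried that separation. Without both, a choice made after the values were seen, the sums lay between 0.229 and 0.299 FPKM and overlapped. The part of urothelium in the Krt20 values was not tested.

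Spp1, which encodes the secreted phosphoprotein osteopontin, and Clu, which encodes the extracellular chaperone clusterin, are made by several nephron segments without injury, and they were by far the most abundant members. Spp1 stood at 553 and 535 FPKM with vehicle, compared with 448, 481 and 540 FPKM with diosmetin. Diosmetin replicate 3 lay between the vehicle values and the other 2 diosmetin libraries were lower. The log2 difference was -0.15 ± 0.11 (SE; limma adjusted p = 0.774), with a 95% interval from -0.42 to 0.11. With median-of-ratios scaling the groups no longer overlapped, at a log2 difference of -0.21. Clu stood at 194 and 178 FPKM with vehicle, compared with 205, 167 and 222 FPKM with diosmetin. Both vehicle values lay inside the range of the diosmetin values, with a log2 difference of 0.08 ± 0.13 (SE; limma adjusted p = 0.897). The level of Spp1 per level of Clu was 2.85 and 2.998 under vehicle and 2.19, 2.89 and 2.43 under diosmetin, which overlapped (exact permutation p = 0.3, two-sided). Spp1 (GeneID 20750, chromosome 5 from 104435111 to 104441053) shares 309 exon bases with Gm42793, an unconfirmed transcript on the same strand, so their fragments could have been divided. Clu (GeneID 12759) lies on chromosome 14 from 65968483 to 65981548.

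Sox9 directs the regrowth of tubule cells after injury, and in uninjured kidney it is confined to few cells. The gene (GeneID 20682) lies on chromosome 11 from 112782210 to 112787757. It stood at 2.14 and 1.47 FPKM with vehicle, compared with 1.85, 1.70 and 2.64 FPKM with diosmetin. The groups overlapped, with the highest value in diosmetin replicate 3 and the lowest in vehicle replicate 2. The log2 difference of 0.12 ± 0.18 (SE; limma adjusted p = 0.876) turned to -0.05 without vehicle replicate 2 and to -0.01 without diosmetin replicate 3. Of its relatives, Sox4, a family member also induced in injured tubules, was at 6.00 and 9.55 FPKM with vehicle, compared with 8.32, 8.89 and 9.18 FPKM with diosmetin. The median log2 difference of the 7 tested SOX genes was 0.09, with 5 higher and 2 lower.

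Timp1 encodes a secreted inhibitor of the matrix metalloproteinases that is switched on in fibrosis and inflammation. It was the rarest member, at 0.0293 and 1.02 FPKM with vehicle, compared with 0.264, 0.209 and 0.0996 FPKM with diosmetin. The highest and the lowest value were both vehicle libraries. By the depth estimate and a transcript of 883 bases these values were about 1 and 44 fragments under vehicle (exact Poisson 95% intervals 0.0253 to 5.57 and 31.97 to 59.1) and about 11, 8 and 4 under diosmetin. The intervals cover counting error only, and that of vehicle replicate 2 lay above those of the other 4 libraries. The difference of log2(FPKM + 1) was -0.28 (exact permutation p = 0.7, two-sided), and 0.21 without vehicle replicate 2. The gene (GeneID 21857, chromosome X from 20870166 to 20874737) lies within Syn1, which is on the other strand, but their exons do not overlap.

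Vehicle replicate 2 was also the library richest in Ptprc and in macrophage transcripts. Ptprc, the pan-leukocyte antigen CD45, was at 1.86 and 9.50 FPKM with vehicle, compared with 6.06, 3.76 and 3.67 FPKM with diosmetin. Macrophage markers summed to 36.2 and 172 FPKM in vehicle replicates 1 and 2 and to 58.9 to 120 in the diosmetin libraries. Of the tested macrophage markers 11 of 11 were highest in vehicle replicate 2, beside 17.8% of all tested genes. Podocyte markers had the same lowest and highest library. They summed to 159 and 316 FPKM with vehicle and to 198, 188 and 170 FPKM with diosmetin. Timp1 had its lowest value in the library with the least Ptprc and its highest in the one with the most. Vehicle replicate 1 was the lowest library for 38.7% of all tested genes. The part of leukocytes or of any other cell type in the Timp1 values was not tested. Timp2 and Timp3, the constitutive inhibitors of the family, were far more abundant than Timp1, at 11.3 to 18.5 and 639 to 834 FPKM. Of the 8 tested inhibitors, metalloproteinases and related genes 3 had a higher and 5 a lower mean, with a median log2 difference of -0.03.

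The members did not share a single order of libraries. Vehicle replicate 1 was the lowest library for 6 of the 10 (Lcn2, the 4 keratins and Timp1), beside 38.7% of tested genes, and the highest for Spp1. Diosmetin replicate 3 was the highest for 5 (Krt18, Krt19, Krt20, Clu and Sox9), beside 19.1% of tested genes, and diosmetin replicate 2 for Havcr1 and Lcn2, beside 37.5%. Diosmetin replicate 1 was the lowest for Havcr1 and Spp1, beside 20.7% of tested genes, and diosmetin replicate 3 for no member, beside 9.86%. Havcr1 and Lcn2 therefore peaked in a different kidney library from Krt18, Krt19 and Krt20, while Krt8 was highest in diosmetin replicate 1. Without vehicle replicate 1 the groups of 6 members did not overlap, 5 higher (Lcn2, Krt8, Krt18, Krt19 and Sox9) and Timp1 lower. With only vehicle replicate 2 left in its group such separation comes easily, and its share over all genes was not computed. With 5 libraries no correlation between members was computed.

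**Figure D3:**
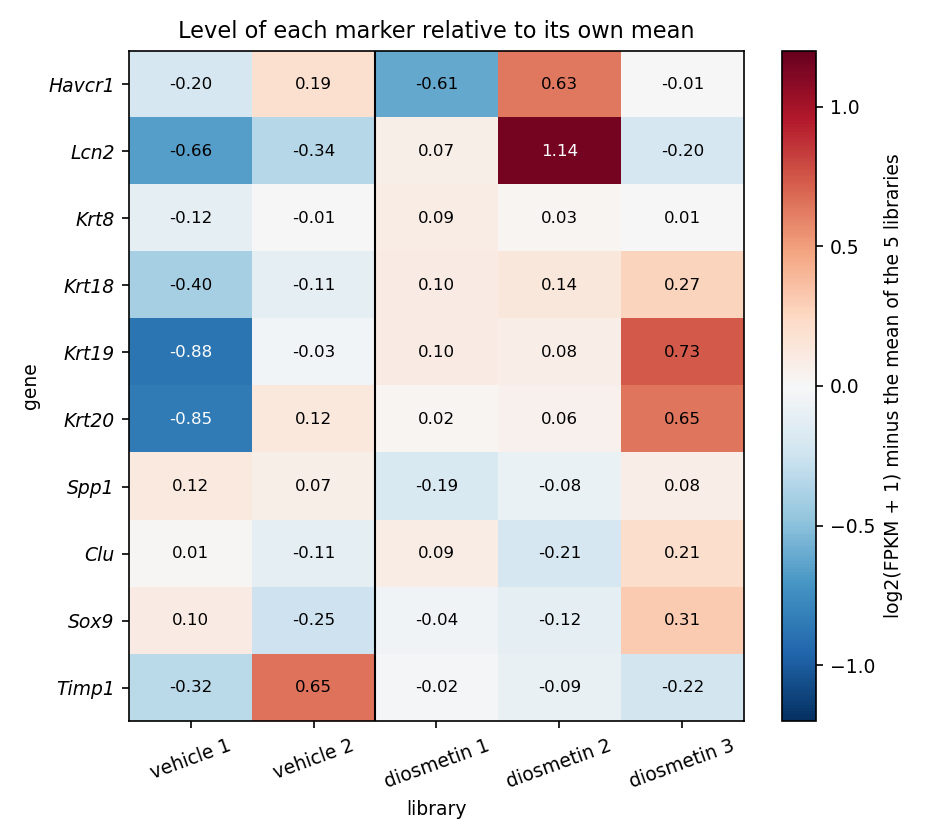
Level of each marker (rows) in each library (columns) as log2(FPKM + 1) minus the gene's own mean over the 5 libraries, in colour and as a printed value; the vertical line separates vehicle from diosmetin. Havcr1 and Lcn2 are highest in diosmetin replicate 2 (0.63 and 1.14), whereas Krt19 and Krt20 are highest in diosmetin replicate 3 (0.73 and 0.65).

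A wider list of 43 genes of tubular injury and repair, all of them tested, gave no uniform direction. Of these 26 had a higher mean under diosmetin and 17 a lower one, with a median log2 difference of 0.07 beside 0.04 for all tested genes, and by limma 0 passed. At an unadjusted p under 0.05 stood 3 genes with a higher mean (Lgals3, Tubb6 and Krt7) and 1 with a lower mean (Fga), beside 4.68% and 1.69% of all tested genes, shares near those of the list. Of the 43 genes 33 were lowest in vehicle replicate 1 and 23 were highest in vehicle replicate 2, beside 38.7% and 17.8% of all tested genes. Vcam1, an adhesion molecule of failed-repair tubule cells and of endothelium, was at 3.595 and 12.5 FPKM with vehicle, compared with 4.90, 4.44 and 4.93 FPKM with diosmetin. Vim, the mesenchymal filament protein vimentin, was at 13.7 and 51.0 against 30.7, 26.3 and 21.5 FPKM, and Cd44, a hyaluronan and osteopontin receptor, at 0.462 and 4.20 against 2.27, 0.805 and 0.756.

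Some genes of that list were highest in diosmetin replicate 2, the library with most Havcr1 and Lcn2. Cdkn1a, the cell cycle inhibitor p21, stood at 4.71 and 6.76 FPKM with vehicle, compared with 5.28, 17.3 and 8.41 FPKM with diosmetin. Gdf15, a stress-induced cytokine, was at 2.67 and 2.43 against 1.76, 6.76 and 3.99 FPKM, and Tnfrsf12a, the receptor of the cytokine TWEAK, at 7.40 and 9.06 against 8.11, 15.5 and 7.99; these 2 genes were chosen after their values were seen. Altogether 11 of the 43 were highest there, a smaller share than the 37.5% of all tested genes. In the other direction, the fibrinogen chains Fga, Fgb and Fgg, which tubule cells make after injury, were highest in vehicle replicate 1. Fga was at 9.07 and 6.81 FPKM with vehicle, compared with 5.29, 4.64 and 6.47 FPKM with diosmetin, without overlap (log2 difference -0.47 ± 0.16 SE, limma adjusted p = 0.738). Fgg, at 16.7 and 8.91 against 7.19, 4.40 and 10.1 FPKM, overlapped. Fgb, at 1.94 and 0.362 against 0.888, 0.586 and 0.676 FPKM, overlapped too and was lowest in vehicle replicate 2. Of the 43 genes 2 were lower and 3 higher without overlap, beside 6.17% and 18.3% of all tested genes.

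Relatives of the keratins and the junction proteins that anchor them mostly had higher means under diosmetin. Of the 14 tested genes 13 were higher and 1 was lower, beside 63.9% and 36.1% of all tested genes, and the median log2 difference was 0.15. The groups of 6 did not overlap, all with diosmetin higher, beside 18.3% of all tested genes. By limma 0 of them passed, and 5 were higher at an unadjusted p under 0.05, beside 4.68% of all tested genes: Krt7, Krt80, Dsp, Dsc2 and Cdh1. The collecting duct markers given above had higher means too, 9 of 9 for principal cells and 8 of 8 for intercalated cells, the latter all without overlap, and their part in these values was not tested. Krt7, a type II keratin of ducts, was at 29.3 and 31.9 FPKM with vehicle, compared with 35.5, 49.9 and 39.7 FPKM with diosmetin. Dsp, the desmosomal plaque protein that binds keratin filaments, was at 6.31 and 7.21 against 8.02, 9.48 and 9.17 FPKM. Dsc2, a desmosomal cadherin, was at 1.33 and 1.79 against 2.25, 2.47 and 2.09 FPKM, and Cdh1, epithelial cadherin, at 60.8 and 67.8 against 68.8, 88.7 and 81.6. Epcam, an adhesion molecule of distal epithelia, overlapped between the groups, at 21.1 and 27.9 against 25.6, 33.7 and 30.5 FPKM. Krt5, Krt14, Krt15 and Krt17, the keratins of stratified epithelia, were listed at 0 in every library.

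Receptors of the secreted members, with Timd2, a relative of Havcr1, listed beside them, mostly had slightly lower means under diosmetin. Lrp2, the endocytic receptor megalin that retrieves filtered lipocalin 2 and clusterin, was at 965 and 927 FPKM with vehicle, compared with 819, 766 and 839 FPKM with diosmetin, with no overlap (log2 difference -0.23 ± 0.11 SE, limma adjusted p = 0.738). Slc22a17, a receptor for lipocalin 2, was at 13.5 and 11.9 against 11.2, 11.2 and 12.0 FPKM. Itgav, the integrin chain that binds osteopontin, was at 74.6 and 77.1 against 72.2, 74.1 and 79.0 FPKM, which overlapped. Timd2, a mouse relative of Havcr1, was at 11.9 and 10.3 FPKM with vehicle, compared with 7.32, 7.24 and 9.07 FPKM with diosmetin, with no overlap (log2 difference -0.45 ± 0.12 SE, limma adjusted p = 0.738). Of the 12 tested genes 3 had a higher and 9 a lower mean, beside 63.9% and 36.1% of all tested genes, with a median log2 difference of -0.07. Lrp2 and Timd2 were the 2 genes lower without overlap, beside 6.17% of all tested genes. Proximal tubule cells, which make megalin, had lower means for 16 of their 18 markers, with a median log2 difference of -0.28, and their part in the Lrp2 values was not tested.

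Genes of the STAT3 and NF-kB responses, pathways that drive Lcn2 and Timp1 in many cells, had a median log2 difference of 0.03 over 18 tested genes, with 12 higher and 6 lower. None was at an unadjusted p under 0.05 by limma, and none passed after adjustment. Stat3 itself was at 18.6 and 21.8 FPKM with vehicle, compared with 21.2, 27.2 and 25.7 FPKM with diosmetin, and its feedback inhibitor Socs3 at 0.743 and 2.38 against 1.34, 2.09 and 1.59. Lrg1, a secreted glycoprotein of the acute phase response, was at 1.75 and 1.28 against 1.88, 3.27 and 1.87 FPKM, with its highest value, like that of Lcn2, in diosmetin replicate 2. Of the 18 tested genes 4 were highest in that library and 11 in vehicle replicate 2, beside 37.5% and 17.8% of all tested genes. Bcl6 had a lower mean under diosmetin, at 7.46 and 5.50 against 7.54, 3.73 and 2.91 FPKM, which overlapped. The acute phase protein Saa1 was at 0.371 and 3.20 against 1.24, 2.42 and 5.56 FPKM.

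Among other genes measured in urine or blood as signs of kidney damage, Tff3, a secreted trefoil peptide, was at 1.19 and 1.26 FPKM with vehicle, compared with 3.03, 3.96 and 4.64 FPKM with diosmetin (log2 difference 1.12 ± 0.16 SE, limma adjusted p = 0.738). Fabp1, a fatty acid-binding protein, was at 4.66 and 20.5 against 49.0, 12.4 and 22.3 FPKM. Chil1 had a lower mean log2 level under diosmetin, at 0.152 and 4.39 against 2.37, 0.282 and 0.269 FPKM, which overlapped. Of the 9 genes of this list 6 had a higher and 3 a lower mean, and the median log2 difference was 0.04, as for all tested genes.

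**Figure D4:**
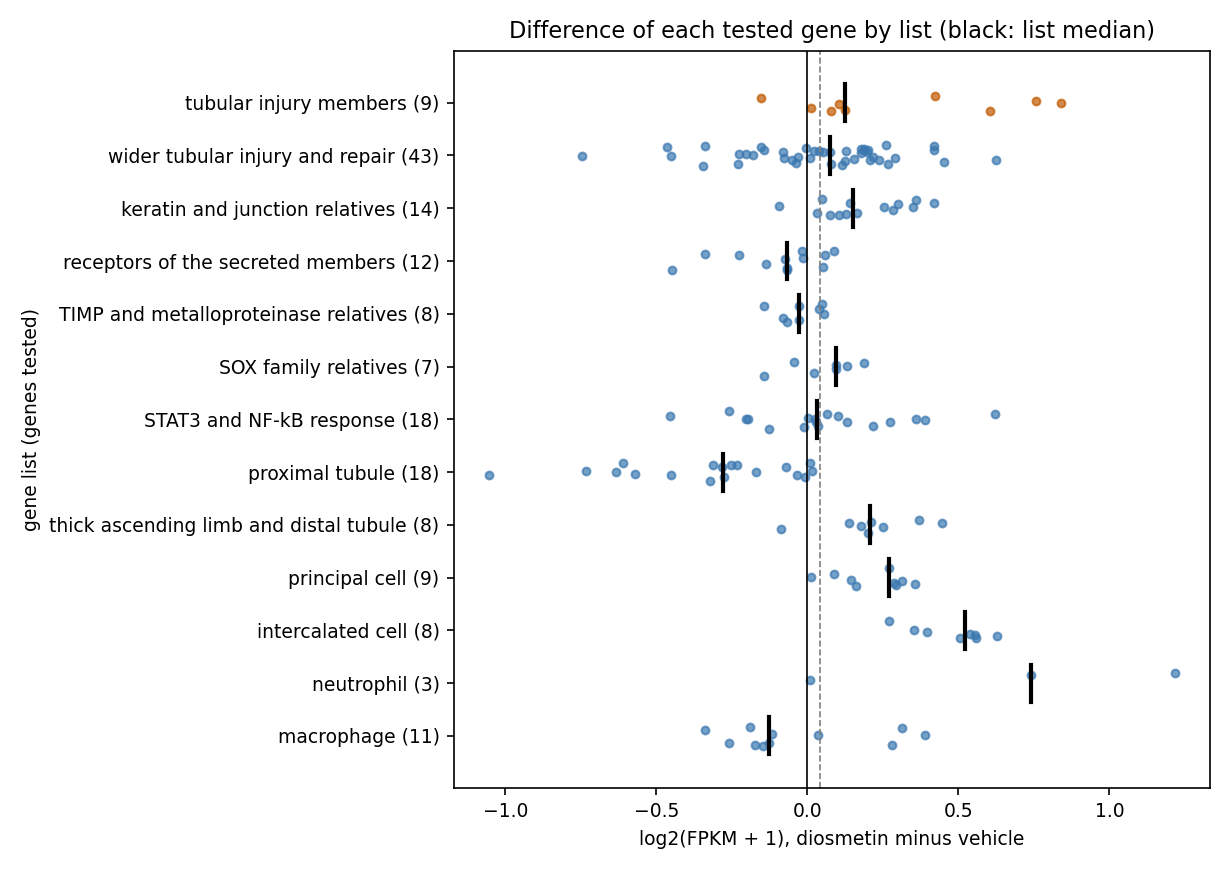
Difference of log2(FPKM + 1), diosmetin minus vehicle (horizontal axis), of each tested gene in the lists named at the left, with the number of genes tested in brackets, the list median as a black bar and the median of all tested genes as a dashed line. The injury markers spread from -0.15 to 0.84 around a median of 0.12 over the 9 tested, and the proximal tubule and intercalated cell markers lie on opposite sides at -0.28 and 0.52.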

How the data were processed

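Kidney RNA of 5 libraries was analysed from 1 table of FPKM values deposited by the authors. Per the labels' protocols, total RNA with an integrity number of at least 7 was depleted of ribosomal RNA and made into stranded paired-end libraries. Per the submitters' processing notes, reads were placed on GRCm38. Aligner, counter and strand setting: not given in the sources used here. Overlapping genes and close copies, such as the processed pseudogene Krt8-ps on chromosome 7 or Gm36026 antisense to Krt8 (101 shared exon bases), cannot be separated with certainty. The labels' protocols name 2 read lengths, and which library had which is not given.

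Columns were matched to samples by the code in the labels. Loci and promoters came from RefSeq GRCm38.p6, and transcript lengths and overlaps from GENCODE. Of 255 listed genes all but Trac were matched by symbol or GeneID, with Cyr61 and Ctgf standing for Ccn1 and Ccn2, and Chil1 for Chi3l1. Depth was estimated from the steps of 1533 genes averaging under 0.05 FPKM. After scaling for relative depth, 1171 of them (76.4%) had values that were whole multiples of the gene's own smallest nonzero value. The tolerance was 2%, capped at 0.1 of that value, which may stand for more than 1 fragment. A length was known for 624 of these genes, and the 455 near the commonest depth set the absolute scale.

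Values were log2(FPKM + 1). Genes averaging 0.5 FPKM or more (13290) were tested two-sided with limma, with a trended prior variance and Benjamini-Hochberg adjustment at 0.05 (residual df 3), and single values by exact permutation. The code was tested on simulated data. All 10 markers are named, with up to 3 genes of each other list by size of difference and 20 further genes; other genes, named for an unadjusted p under 0.05, for being at 0, for groups that did not overlap, for their part in a list or for their highest library, were chosen after their values were seen. The members and lists were chosen with earlier results of these data known. Alternatives were each library left out, quantile normalization, median-of-ratios scaling, TPM, a pseudocount of 0.1, an average of 1 FPKM or no minimum, library quality weights, and a prior without trend. Computations used limma 3.58.1 and data.table (version 1.17.8) in R 4.3.3, and scipy 1.17.1, pandas 2.3.3, numpy 2.4.6 and matplotlib 3.10.9 in Python 3.11.15.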

Additional observations from a re-analysis of the deposited data

How the results depend on the processing

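No gene passed an adjusted p of 0.05 by limma under any alternative run, and so no member did (847 genes were at an unadjusted p under 0.05, and 385 to 1464 when a library was left out). The number of members whose groups did not overlap was 4, all higher, beside 18.3% of all tested genes in that direction. With quantile normalization it was 3, and with median-of-ratios scaling 4, of which 3 were higher and Spp1 was lower. When each library was left out it was 4 to 7, 7 without vehicle replicate 2. The share over all genes was not computed for these alternatives. Fewer libraries make such separation easier. The members with a lower mean numbered 2, then 3 with median-of-ratios scaling or quantile normalization, and 2 to 4 with a library left out. Of 130 recomputed differences of single members 8 changed sign, all in members whose groups overlapped. The 130 include settings that cannot alter a difference of group means. These were another expression minimum, no minimum and a prior without trend, which repeated the main values. Havcr1 was at -0.0392 with median-of-ratios scaling and -0.0381 with quantile normalization, and between -0.30 and 0.32 with a library left out. Leaving out a library gave -0.00988 to 0.20 for Clu, -0.0480 to 0.30 for Sox9 and -0.76 to 0.21 for Timp1; the cause was not tested. Lcn2, Krt8, Krt18, Krt19 and Krt20 stayed above 0 and Spp1 below 0 in all of these fits. The 4 ratios between members, recomputed with a pseudocount of 1 and with each library left out, kept their sign. With 2 vehicle libraries, of which 1 had the lowest value for 38.7% of genes, the direction of any low member rests on few samples. No paired analysis was possible because the labels give the groups no shared replicate numbers.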
